A study of Homo sapiens with 8 samples.

Results

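Noncoding host genes of small nucleolar RNAs (snoRNAs) were followed across a drug sequence in HCT-116 cells, an established human colorectal cancer line. The 10 host genes are GAS5, SNHG1, SNHG3, SNHG4, SNHG5, SNHG6, SNHG7, SNHG8, SNHG12 and SNHG15, out of 23924 genes in the tables. They were chosen by their fall with 3-MB-PP1 in these same libraries, so their values with that compound are a description without a test. Each gene is represented by whichever of its transcript rows had the highest mean count. By symbol 9 were found, SNHG15 was listed under its older symbol C7orf40, and all 10 passed the filter on low counts.

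All cells were HCT-116 in a 2-step treatment of 12 h and then 4 h, with a wash between, and total RNA was sequenced after rRNA depletion. The 4 groups were 40 µM 5-fluorouracil (5-FU) then 2.5 µM 3-MB-PP1, 5-FU then DMSO, DMSO then 3-MB-PP1, and DMSO then DMSO, with 2 libraries each and 8 in all. 5-FU is an antimetabolite that inhibits thymidylate synthase and enters RNA. 3-MB-PP1 is a bulky inhibitor used on kinases engineered to accept it; the series concerns Cdk7, a kinase of the transcription and cell cycle machinery, and the labels do not say which kinase allele the cells carried. The labels number the replicates without saying that they were separate cultures, so p-values measure the spread between these libraries, which may be technical.

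Most human snoRNAs lie in introns and are released from the spliced-out introns of a host RNA. C/D box snoRNAs guide methylation and H/ACA box snoRNAs guide pseudouridylation, mainly of ribosomal RNA. In noncoding hosts such as GAS5 the exons carry no long reading frame, and the spliced RNA is a known substrate of nonsense-mediated decay, the pathway that removes translated RNAs with early stop codons. Many such hosts belong to the 5′ terminal oligopyrimidine (TOP) class, whose transcripts begin with C and a run of pyrimidines and whose translation follows growth signals; GAS5 was named for its rise in growth-arrested cells.

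Gene counts per library ranged from 10598804 to 50593139; the largest belonged to 1 of the DMSO then 3-MB-PP1 libraries. ERCC spike-in RNA took 2.18% to 4.16% of the authors' library totals. Of 6 epithelial markers, VIL1 was at or near 0 in all libraries, with at most 0.308 CPM (counts scaled to library size), and the other 5 were present at 18.2 to 2205 CPM. Of 6 leukocyte, endothelial and fibroblast markers, CDH5, COL1A2 and DCN were at 0 in all libraries, and the highest level of the other 3 was 20 CPM (COL1A1). In bulk RNA, fewer cells and less RNA per cell cannot be told apart.

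The first bases of annotated transcripts are shown because the TOP start is the sequence feature that the choice of genes did not use. They are from GENCODE release 29 on GRCh38, read 5′ to 3′ on the strand of the transcript. For 9 of the genes the first transcript by name with a TOP start is shown, or, for SNHG7 and SNHG15, which have none, the transcript matched to the RefSeq row used here. The TOP transcripts were picked for that start, and need not begin where the counted row of the gene begins. SNHG6 is counted but not shown. Capitals mark the leading C with its unbroken run of at least 4 pyrimidines, searched at the first base of the transcript strand alone.
GAS5: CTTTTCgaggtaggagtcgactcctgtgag
SNHG1: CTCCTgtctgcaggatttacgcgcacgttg
SNHG5: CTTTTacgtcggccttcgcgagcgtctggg
SNHG12: CCTTTCTCCCCgccgcattcccggtgtcga
SNHG3: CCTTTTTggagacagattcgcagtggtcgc
SNHG8: CTTTCacattcgggaagcgtcgggattagg
SNHG4: CCTTTCCCCTCCggcctctgccggtgctgc
SNHG7: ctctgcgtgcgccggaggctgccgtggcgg
SNHG15: tccactgagttgacacgcagacgcagcctc

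On GRCh38 these stretches lie at chr1:173867960-173867989 on the minus strand (GAS5), chr11:62855450-62855479 minus (SNHG1), chr6:85678704-85678733 minus (SNHG5), chr1:28581844-28581873 minus (SNHG12), chr1:28506043-28506072 plus (SNHG3), chr4:118278758-118278787 plus (SNHG8), chr5:139274102-139274131 plus (SNHG4), chr9:136728155-136728184 minus (SNHG7) and chr7:44986805-44986834 minus (SNHG15). At least 1 annotated transcript began this way in 8 of the 10 host genes (80%), SNHG6 among them, against 2434 of 14557 tested genes with GENCODE transcripts (16.7%). Among tested genes with at least 4 annotated transcripts the share was 20.5%. By gene these were 6 of 29 transcripts of GAS5, 1 of 25 of SNHG1, 1 of 3 of SNHG3 and 4 of 9 of SNHG4. They were 3 of 23 of SNHG5, 3 of 5 of SNHG6, 1 of 5 of SNHG8 and 4 of 17 of SNHG12. Counted over transcripts, 23 of the 130 of the host genes (17.7%) began this way, against 3331 of the 126304 of all those genes (2.64%). An annotated start is not a measured one, and which starts these cells used was not tested.

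Levels of the host genes are compared with each other per length, in the authors' deposited RPKM (reads per kilobase of transcript, scaled to library total). After DMSO then DMSO, GAS5 was highest at 271 ± 1.8 RPKM (SD, n = 2), followed by SNHG6 at 216 ± 0.83, SNHG1 at 161 ± 2.48, SNHG5 at 102 ± 4.26, SNHG8 at 78.7 ± 4.7 and SNHG12 at 68.1 ± 0.655. SNHG7 at 39.5 ± 9.04 and SNHG15 at 35.3 ± 0.365 RPKM overlapped between libraries, and SNHG3 at 28.8 ± 2.25 and SNHG4 at 18.3 ± 0.0636 RPKM were lowest. After 5-FU then 3-MB-PP1 SNHG6 was the highest at 219 ± 0.689 RPKM, above GAS5 at 185 ± 3.21, and SNHG3 at 12 ± 0.95 took the last place, below SNHG4 at 14.7 ± 0.873.

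With 3-MB-PP1 the 10 host genes had a median log2 change of -0.71 after 5-FU and -0.85 without it, beside medians near 0 over all 15755 genes tested (0.0033 and -0.0118). After 5-FU, 9 of 10 lay below both 5-FU then DMSO libraries, which held for 32.5% of all genes tested; without 5-FU, 10 of 10 lay below both DMSO then DMSO libraries, which held for 34% of all genes. Of all genes tested, 15.7% were called higher and 17.2% lower with 3-MB-PP1 after 5-FU, and 11.6% higher and 16.9% lower with 3-MB-PP1 alone, at an adjusted p under 0.05. These shares give the scale only, since the genes were chosen by this contrast. The smallest changes among the 10, at the edge of the choice, were those of SNHG6 and SNHG4.

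**Figure D1:**
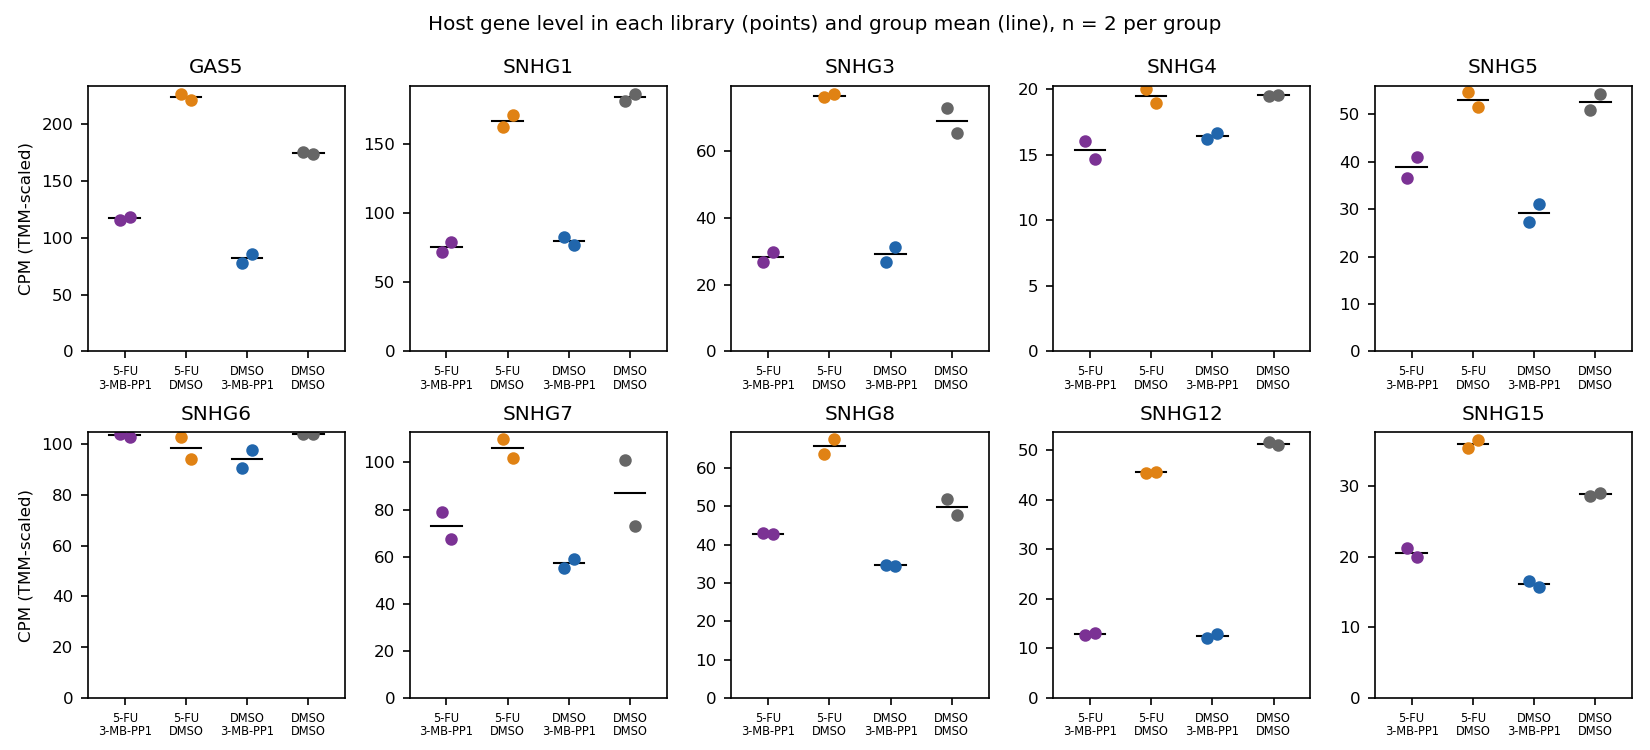
TMM-scaled CPM (vertical axes, from 0) of the 10 host genes in each of the 8 libraries, grouped by treatment; points are libraries and lines are means of 2. SNHG12 sits at 12 to 13.2 CPM in the 4 libraries with 3-MB-PP1 and at 45.5 to 51.6 CPM in the 4 without, whereas SNHG6 stays between 90.6 and 104 CPM in all 8.

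Among hosts of C/D box snoRNAs, GAS5 (hg19 chr1:173833039-173837125, minus strand) holds the most snoRNA rows, 10. Its RNA is also known as a decoy that binds the glucocorticoid receptor. GAS5 had 116 and 118 CPM after 5-FU then 3-MB-PP1, 226 and 221 CPM after 5-FU then DMSO, 77.9 and 85.9 CPM after DMSO then 3-MB-PP1, and 175 and 174 CPM after DMSO then DMSO. The 4 groups did not overlap, and the libraries with 3-MB-PP1 were the lowest of each pair. The log2 change with 3-MB-PP1 was -0.93 (SE 0.06) after 5-FU and -1.11 (SE 0.06) without it.

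SNHG1 (hg19 chr11:62619460-62623360, minus strand), a host of 8 C/D box snoRNA rows, had 71.9 and 79.2 CPM after 5-FU then 3-MB-PP1, 162 and 171 CPM after 5-FU then DMSO, 82.5 and 77.2 CPM after DMSO then 3-MB-PP1, and 181 and 186 CPM after DMSO then DMSO. Both pairs were fully apart by inhibitor, with log2 changes of -1.14 (SE 0.06) after 5-FU and -1.19 (SE 0.06) without it. SNHG5 (hg19 chr6:86386725-86388451, minus strand), the host of SNORD50A and SNORD50B, had 36.5 and 41.1 CPM after 5-FU then 3-MB-PP1, 54.6 and 51.6 CPM after 5-FU then DMSO, 27.2 and 31 CPM after DMSO then 3-MB-PP1, and 51 and 54.2 CPM after DMSO then DMSO. Its log2 change was -0.45 (SE 0.08) after 5-FU and -0.89 (SE 0.08) without it, and the libraries with both drugs lay between those with 3-MB-PP1 alone and those without the inhibitor.

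SNHG6 (hg19 chr8:67834165-67837777, minus strand), the host of SNORD87, had the smallest changes of the 10. It had 104 and 103 CPM after 5-FU then 3-MB-PP1, 103 and 94.1 CPM after 5-FU then DMSO, 90.6 and 97.9 CPM after DMSO then 3-MB-PP1, and 104 and 104 CPM after DMSO then DMSO. After 5-FU the libraries with and without 3-MB-PP1 overlapped, with a log2 change of 0.07 (SE 0.06). Without 5-FU the log2 change was -0.15 (SE 0.06), and scaled to the ERCC spike-ins these values were -0.06 after 5-FU and 0.09 without it, beside medians of all genes of -0.12 and 0.19, so the sign for SNHG6 depends on the scaling in both.

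Among hosts with H/ACA box snoRNAs, SNHG12 (hg19 chr1:28905050-28908366, minus strand), which also holds SNORD99, had the largest change of the 10. SNHG12 had 12.8 and 13.2 CPM after 5-FU then 3-MB-PP1, 45.5 and 45.6 CPM after 5-FU then DMSO, 12 and 12.9 CPM after DMSO then 3-MB-PP1, and 51.6 and 51 CPM after DMSO then DMSO. With 3-MB-PP1 it stood at 28.6% of its level after 5-FU (log2 change -1.81, SE 0.09) and at 23.8% without 5-FU (-2.07, SE 0.08). SNHG3 (hg19 chr1:28832455-28837404, plus strand) had 26.7 and 29.6 CPM after 5-FU then 3-MB-PP1, 76.1 and 76.9 CPM after 5-FU then DMSO, 26.9 and 31.1 CPM after DMSO then 3-MB-PP1, and 72.8 and 65.2 CPM after DMSO then DMSO. The libraries with 3-MB-PP1 were fully below the others, with log2 changes of -1.44 (SE 0.08) after 5-FU and -1.29 (SE 0.08) without it.

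SNHG15 (hg19 chr7:45022627-45026259, minus strand), the host of SNORA9, had 21.2 and 20 CPM after 5-FU then 3-MB-PP1, 35.5 and 36.6 CPM after 5-FU then DMSO, 16.6 and 15.7 CPM after DMSO then 3-MB-PP1, and 28.7 and 29.1 CPM after DMSO then DMSO. Its 4 groups did not overlap, and the log2 change with 3-MB-PP1 was -0.81 (SE 0.09) after 5-FU and -0.82 (SE 0.09) without it. SNHG8 (hg19 chr4:119199917-119200978, plus strand), the host of SNORA24, had 43 and 42.7 CPM after 5-FU then 3-MB-PP1, 63.7 and 67.6 CPM after 5-FU then DMSO, 34.8 and 34.5 CPM after DMSO then 3-MB-PP1, and 51.8 and 47.6 CPM after DMSO then DMSO. Its groups did not overlap either, with log2 changes of -0.61 (SE 0.07) after 5-FU and -0.52 (SE 0.07) without it, while its shortest row, of 274 exonic bases, had log2 ratios of -0.22 and -0.27. SNHG4 (hg19 chr5:138609441-138618873, plus strand), the host of SNORA74A, had 16.1 and 14.7 CPM after 5-FU then 3-MB-PP1, 20 and 19 CPM after 5-FU then DMSO, 16.2 and 16.7 CPM after DMSO then 3-MB-PP1, and 19.5 and 19.6 CPM after DMSO then DMSO. The libraries with the inhibitor were lower in both pairs, by a log2 change of -0.34 (SE 0.11) after 5-FU and -0.26 (SE 0.10) without it. Under ERCC scaling SNHG4 stood at -0.47 and -0.04, and SNHG8 at -0.73 and -0.30; the longest SNHG4 row gave -0.48 and -0.18.

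**Figure D2:**
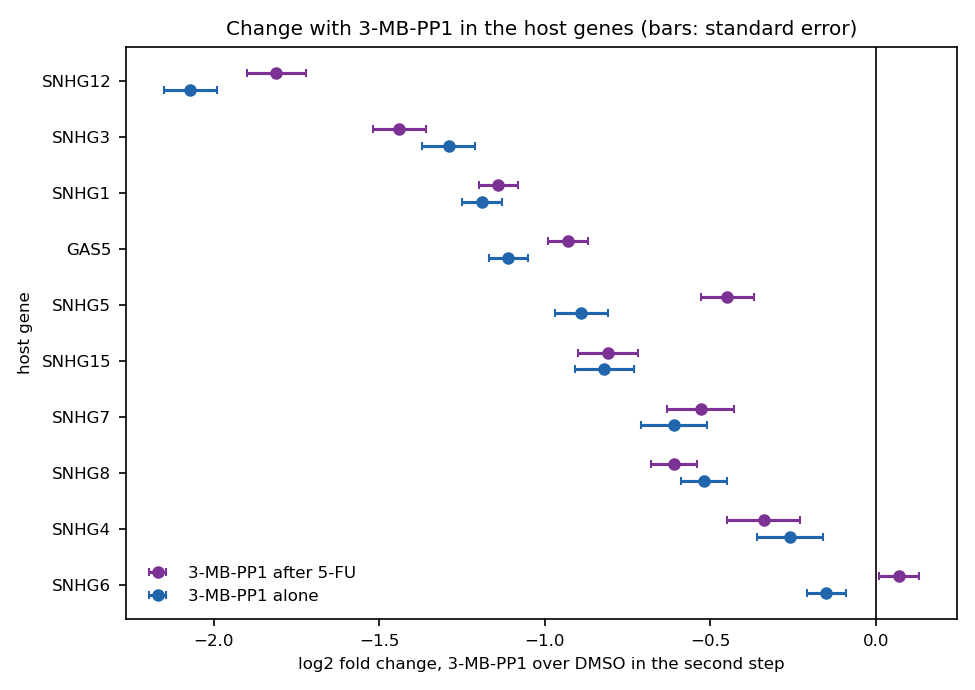
Log2 fold change with 3-MB-PP1 over DMSO in the second step (horizontal axis) for each host gene, after 5-FU and without it; points are edgeR estimates from 2 libraries per group and bars are standard errors. SNHG12 is farthest to the left in both, at -1.81 and -2.07, and SNHG6 is nearest to 0.

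SNHG7 (hg19 chr9:139619684-139622636, minus strand) read differently by transcript. The kept row of 2157 exonic bases had 78.9 and 67.5 CPM after 5-FU then 3-MB-PP1, 110 and 102 CPM after 5-FU then DMSO, 55.3 and 59.2 CPM after DMSO then 3-MB-PP1, and 101 and 72.9 CPM after DMSO then DMSO. Its log2 change with 3-MB-PP1 was -0.53 (SE 0.10) after 5-FU and -0.61 (SE 0.10) without it. The value without 5-FU was -0.36 when DMSO then DMSO replicate 1 was left out, -0.83 when replicate 2 of that group was left out, and -0.32 under ERCC scaling. The row of 967 exonic bases had 13.9 and 14.2 CPM after 5-FU then 3-MB-PP1, 62.6 and 59.8 CPM after 5-FU then DMSO, 13.7 and 12.9 CPM after DMSO then 3-MB-PP1, and 60.1 and 57.9 CPM after DMSO then DMSO. The log2 ratio of the group means of this shorter row was -2.12 after 5-FU and -2.15 without it, beyond the fitted -1.81 and -2.07 of SNHG12, and the row of 852 exonic bases gave -2.07 and -2.17.

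A snoRNA row inside the span of SNHG7 is set beside it. SNORA17B, an H/ACA box snoRNA listed in the tables under its older symbol SNORA43, had 62.7 and 52.1 CPM after 5-FU then 3-MB-PP1, 61 and 56.3 CPM after 5-FU then DMSO, 40.4 and 44.4 CPM after DMSO then 3-MB-PP1, and 56.2 and 30 CPM after DMSO then DMSO. The DMSO then DMSO library with the low SNORA17B level is the one with the low kept row, while the shorter rows of those libraries were alike. The raw counts of SNORA17B were 794 and 676 after 5-FU then 3-MB-PP1, close to the 824 and 692 by which the kept row exceeded the row of 967 bases. They were 929 and 942 against an excess of 718 and 698 after 5-FU then DMSO, 2076 and 473 against 2138 and 493 after DMSO then 3-MB-PP1, and 723 and 395 against 527 and 198 after DMSO then DMSO. Over the 8 libraries the SNORA17B row amounted to 63.8% of the kept row's counts, and the share of reads counted in both was not tested.

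**Figure D3:**
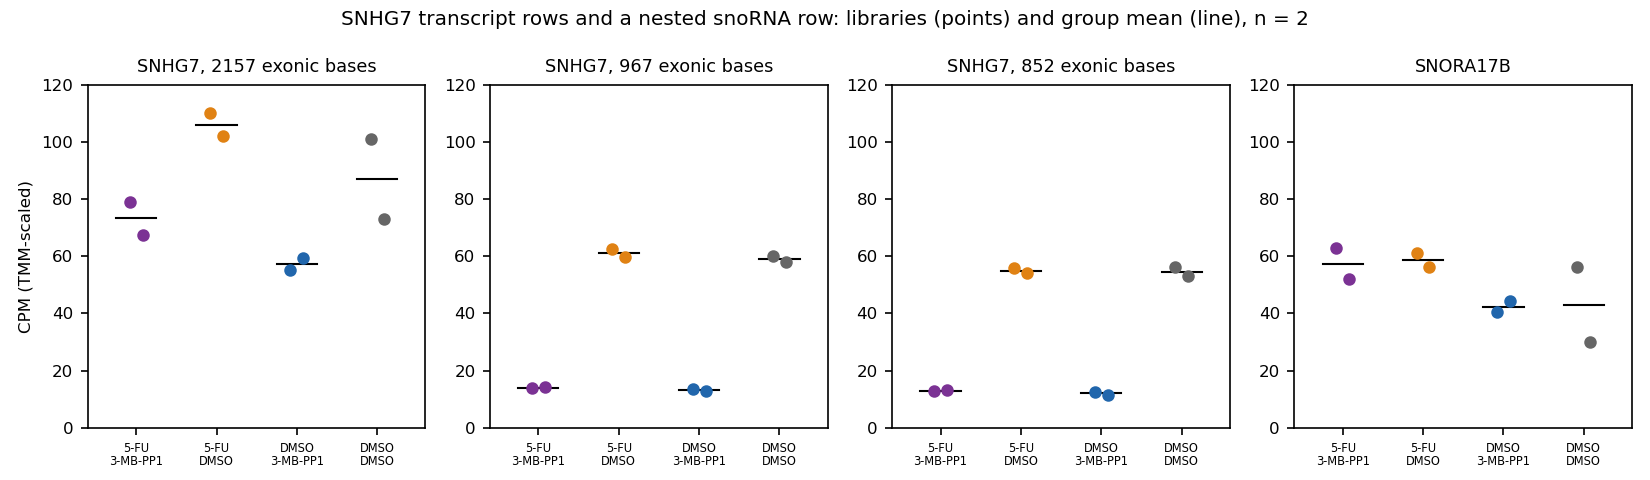
TMM-scaled CPM (vertical axes, same scale from 0) of the 3 SNHG7 transcript rows and of the SNORA17B row; points are libraries, lines are means of 2. The shorter SNHG7 rows lie at 11.6 to 14.2 CPM with 3-MB-PP1 and at 53 to 62.6 CPM without, while SNORA17B overlaps between groups with and without 3-MB-PP1.

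The difference of both 3-MB-PP1 changes, after 5-FU minus without it, had a median of 0.07 over the 10 host genes, beside 0.01 over all genes tested. It lay above 0 in 7 and below 0 in 3, and within 2 standard errors of 0 in 6. The largest was that of SNHG5, 0.44 (SE 0.11), and SNHG12 stood at 0.27 (SE 0.13). Both inhibitor contrasts belong to the choice of genes, so this difference was not tested.

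In all, 30 snoRNA rows lay inside 9 of the hosts on the same strand (10 in GAS5, 8 in SNHG1, 4 in SNHG12, 2 each in SNHG5 and SNHG7, and 1 each in SNHG4, SNHG6, SNHG8 and SNHG15), and none in SNHG3. All 30 were tested, with totals of 85 to 7008 counts over the 8 libraries. The 22 C/D box rows, of 43 to 126 bases, had a median log2 change with 3-MB-PP1 of -1.22 after 5-FU and -1.30 without it, and 21 and 22 of them lay below 0. The 8 H/ACA box rows, of 130 to 200 bases, had medians of -0.30 and -0.28, with 7 of 8 below 0 in both. Class and host are largely not separated here, as 10 of the 22 C/D box rows lay in GAS5 and 8 in SNHG1. The reference without 5-FU was also uneven in some H/ACA box rows. After DMSO then DMSO, SNORA17B had 56.2 and 30 CPM and SNORA74A 25.2 and 11.9 CPM, while SNORA61 had 11.7 and 12 CPM. Within SNHG12 all 4 nested rows lay above the change of their host of -1.81 after 5-FU and -2.07 without it: SNORD99 at -0.25 and -1.09, SNORA61 at -0.35 and -0.45, SNORA44 at -0.38 and -0.42, and SNORA16A at 0.35 and 0.19.

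These rows share a contrast with the choice of hosts and are therefore given without a test. Host precursor and mature snoRNA cannot be told apart in such a row, and the RNA was purified on a silica column of a kind that retains little small RNA. Where counts were lowest the estimates were loose: SNORD31 inside SNHG1, with the extreme log2 change of -3.34 after 5-FU, averaged 0.196 CPM after 5-FU then 3-MB-PP1 and 2.05 CPM after 5-FU then DMSO, and its lowest library held 1 count.

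**Figure D4:**
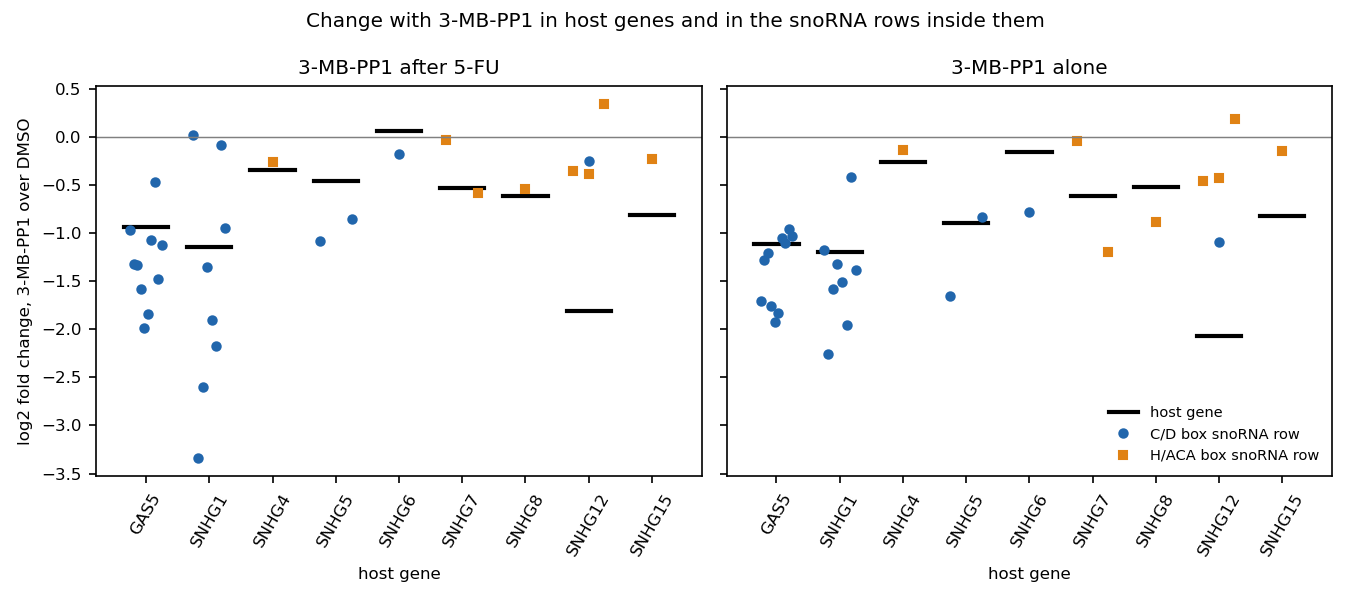
Log2 fold change with 3-MB-PP1 (vertical axis) after 5-FU (left) and without it (right); black lines are the host genes, circles C/D box and squares H/ACA box snoRNA rows inside them. The circles of GAS5 and SNHG1 scatter around and below their host lines, and the squares of SNHG12 lie far above its line.

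With 5-FU, a contrast the choice did not use, GAS5, SNHG8 and SNHG15 rose in both settings and SNHG5 in 1 of them. SNHG7 was called higher in both by edgeR, but in neither by DESeq2 or limma. In cells that then received 3-MB-PP1, 5 of 10 were called higher, against 19.7% of all genes tested, and 0 lower, against 19.8%. Without the inhibitor 4 of 10 were called higher, against 21.2% of all genes, and 0 lower, against 22.7%. DESeq2 and limma also called 0 lower in either setting at an adjusted p under 0.05. At an unadjusted p under 0.05, edgeR gave 0 lower before 3-MB-PP1 and 2 lower alone (SNHG1 and SNHG12). At that threshold limma on log2(RPKM + 0.1) gave 0 and 1, and DESeq2 0 in both. SNHG1, at -0.14 (adjusted p = 0.0612) with 5-FU alone, was called lower when either DMSO then 3-MB-PP1 library was left out of the shared fit (adjusted p = 0.0487 and 0.0494). Each 5-FU contrast shares a pair of libraries with an inhibitor contrast by which the genes were chosen, so these counts are not independent of the choice.

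GAS5 rose 1.44-fold with 5-FU before 3-MB-PP1 (log2 0.53, SE 0.06, adjusted p = 8.13e-08, edgeR) and 1.28-fold with 5-FU alone (0.35, SE 0.06, adjusted p = 9.46e-06). SNHG8 rose by a log2 change of 0.31 (adjusted p = 0.00155) before 3-MB-PP1 and 0.40 (adjusted p = 3.61e-05) alone, and SNHG15 by 0.33 (adjusted p = 0.00574) and 0.32 (adjusted p = 0.00311). In each of these 3 genes both libraries with 5-FU exceeded both without it, in both settings. Without 5-FU then 3-MB-PP1 replicate 1, SNHG15 stood at 0.29 before the inhibitor (adjusted p = 0.0742). SNHG5 rose by 0.45 (SE 0.08, adjusted p = 0.000101) with 5-FU before 3-MB-PP1 and stood at 0.01 (SE 0.08, adjusted p = 0.919) with 5-FU alone; the difference of these changes was not tested.

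SNHG7 was called higher by its kept row, 0.37 (adjusted p = 0.00462) before 3-MB-PP1 and 0.28 (adjusted p = 0.0191) alone. Its shortest row stood at 0.07 (adjusted p = 0.645) and 0.01 (adjusted p = 0.95), and without the low DMSO then DMSO library the kept row stood at 0.06 (adjusted p = 0.631) with 5-FU alone, so the call rests on the row and on that library. It was also lost alone without 5-FU then DMSO replicate 1 (adjusted p = 0.152), and before the inhibitor without 5-FU then 3-MB-PP1 replicate 1 (adjusted p = 0.132) or DMSO then 3-MB-PP1 replicate 1 (adjusted p = 0.0604). The row of SNORA17B within it was called higher with 5-FU by 0.46 (adjusted p = 0.012, edgeR) and 0.45 (adjusted p = 0.0147, edgeR). With 5-FU alone it had 61 and 56.3 CPM against 56.2 and 30 CPM after DMSO then DMSO. That value therefore leans on the same low library. SNHG1, SNHG3, SNHG4, SNHG6 and SNHG12 did not pass the test in either setting, with changes of -0.17 to 0.15. SNHG6 passed it before 3-MB-PP1 when DMSO then 3-MB-PP1 replicate 2 was left out (0.19, adjusted p = 0.0311), and SNHG4 passed it with 5-FU alone in its longest row (0.30, adjusted p = 0.0343). The spike-in share was uneven between libraries of a group (4.16% and 2.52% after DMSO then DMSO). Under that scaling 0 of the 10 were called by edgeR with 5-FU in either setting, and 0 had an unadjusted p under 0.05. Few genes of all 15755 tested were called under it: 20 higher and 120 lower before 3-MB-PP1, and 93 and 150 alone. The estimates of GAS5, SNHG8 and SNHG15 were then 0.28, 0.10 and 0.15 before 3-MB-PP1, and 0.48, 0.53 and 0.44 alone.

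**Figure D5:**
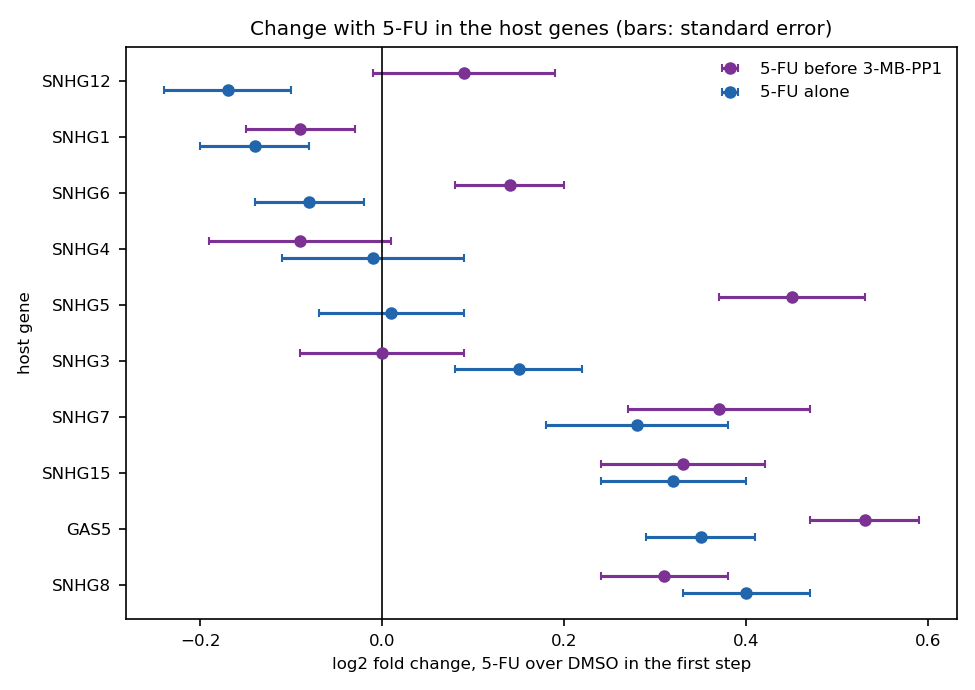
Log2 fold change with 5-FU over DMSO in the first step (horizontal axis), before 3-MB-PP1 and alone; points are edgeR estimates from 2 libraries per group and bars are standard errors. GAS5, SNHG7, SNHG8 and SNHG15 lie right of 0 in both, and SNHG5 at 0.45 before 3-MB-PP1 and 0.01 alone.

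Of the 22 nested C/D box rows, edgeR called 1 higher (SNORD22) and 1 lower (SNORD27) with 5-FU before 3-MB-PP1, and 0 higher and 2 lower (SNORD27 and SNORD81) with 5-FU alone. At an unadjusted p under 0.05 edgeR gave 1 higher and 5 lower alone. The calls depended on the method. DESeq2 called 1 of the 22 higher and 0 lower before 3-MB-PP1, and 0 and 0 alone. By limma these counts were 1 and 3, and 1 and 2. Over all genes tested the shares were 19.7% higher and 19.8% lower before 3-MB-PP1, and 21.2% and 22.7% alone. Of the 8 H/ACA box rows, 3 were called higher (SNORA17B, SNORA24 and SNORA16A) before 3-MB-PP1, and 4 (the same 3 and SNORA74A) alone, with 0 lower at an adjusted or unadjusted p under 0.05. DESeq2 called 1 and 0 of the 8 higher, and limma called 2 and 3. Under ERCC scaling 0 of the 30 nested rows were called in either setting, and at an unadjusted p under 0.05 1 H/ACA box row was higher with 5-FU alone. Of all 15755 genes tested, that scaling left 20 called higher and 120 lower before 3-MB-PP1, and 93 and 150 alone. The medians were -0.06 and -0.22 for C/D box rows and 0.48 and 0.45 for H/ACA box rows. With 5-FU alone the reference was uneven, as DMSO then DMSO replicate 2 was low in several H/ACA box rows. Replicates 1 and 2 of that group had 56.2 and 30 CPM of SNORA17B, 5.67 and 3.27 of SNORA44, and 7.92 and 5.55 of SNORA24. SNORA61, at 11.7 and 12 CPM, and SNORA9, at 2.41 and 2.2 CPM, were alike. How far the median of 0.45 rests on that library was not tested. SNORA16A inside SNHG12 was called at 1.01 (adjusted p = 0.00127) before 3-MB-PP1, but its libraries overlapped there, with 11.3 and 7.01 CPM after 5-FU then 3-MB-PP1 and 3.6 and 7.41 CPM after DMSO then 3-MB-PP1. With 5-FU alone it was called at 0.84 (adjusted p = 0.015), with 7.68 and 6.64 CPM after 5-FU then DMSO and 4.74 and 3.27 CPM after DMSO then DMSO, which did not overlap. The libraries of SNORA74A overlapped with 5-FU alone, at 24.9 and 25.8 CPM after 5-FU then DMSO and 25.2 and 11.9 CPM after DMSO then DMSO.

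Overlapping genes bear on several values, since it is not given whether counting used the strand. GAS5-AS1, antisense across GAS5, had log2 changes of -0.89 and -0.95 with 3-MB-PP1 after 5-FU and without it, close to GAS5, and averaged 8.28 CPM after 5-FU then 3-MB-PP1 and 12.8 CPM after DMSO then DMSO. SNHG3 shares a start and strand with RCC1, a chromatin-bound exchange factor, which stood at -0.30 and -0.41 where SNHG3 stood at -1.44 and -1.29. SNHG4 shares a start and strand with MATR3, a nuclear matrix protein gene, at 592 CPM after 5-FU then 3-MB-PP1 and 644 CPM after DMSO then DMSO against 15.4 and 19.5 CPM of SNHG4, so a small share of reads would matter there. MATR3 stood at 0.17 and -0.06. Across the divergent start of SNHG1, SLC3A2, an amino acid transporter subunit, stood at -0.23 and -0.00, and across that of GAS5, ZBTB37 at -0.72 and -0.77, both on the opposite strand without overlap. DIPK1B over SNHG7 stood at -1.04 and -1.18, TRNAU1AP over SNHG12 at 0.06 and 0.12, and MCMDC2 over SNHG6 at 0.12 and -0.17; how far counts were shared was not tested.

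Other noncoding hosts are those left after the 10 had been picked. For this list and those that follow, the shares over all genes tested give the scale. With 3-MB-PP1 after 5-FU 15.7% were called higher and 17.2% lower, and without 5-FU 11.6% and 16.9%. With 5-FU these shares were 19.7% and 19.8% before 3-MB-PP1, and 21.2% and 22.7% alone. Of 12 listed, 9 were tested: with 3-MB-PP1 5 fell after 5-FU and 6 fell without it, and 0 rose in either at an adjusted or unadjusted p under 0.05, with medians of -0.28 and -0.27. DESeq2 called 4 and 3 lower. EPB41L4A-AS1 fell by 1.54 and 1.24 on the log2 scale (adjusted p = 1.04e-09 and 1.08e-08, edgeR), the size of the picked hosts. SNHG16, the most abundant, fell by 0.24 and 0.27, and SNHG17 by 0.46 and 0.38. SNHG11 fell by 0.50 without 5-FU and stood at -0.37 (adjusted p = 0.0757) after it. With 5-FU 3 of the 9 were called higher in each setting, though not the same 3. ZFAS1 and DANCR rose in both. SNHG11 was called only before 3-MB-PP1 (0.47, adjusted p = 0.0221, edgeR) and SNHG20 only with 5-FU alone (0.37, adjusted p = 0.00679, edgeR). SNHG10 fell in both, by 0.75 and 0.74, but with the shortest transcript no gene of this list was called lower in either.

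Of 47 protein-coding snoRNA hosts, 8 rose and 12 fell with 3-MB-PP1 after 5-FU, and 0 rose and 12 fell without 5-FU, with medians of 0.01 and -0.06. The largest falls without 5-FU were in RABGGTB, a prenyltransferase subunit, which fell by 1.02 after 5-FU and by 1.06 without it, and EIF5, an initiation factor, which fell by 0.47 and 1.01. TAF1D, a subunit of the RNA polymerase I factor SL1, fell by 0.67 and 0.92, and EIF4A2, an RNA helicase of translation initiation, fell by 1.05 and 0.79. With 5-FU, 21 of the 47 rose and 9 fell before 3-MB-PP1, and 19 rose and 14 fell with 5-FU alone.

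Genes that act on snoRNAs or on host RNAs had medians near 0 with the inhibitor. Of 22 core and assembly proteins of snoRNA particles, 3 rose and 7 fell with 3-MB-PP1 after 5-FU, and 0 rose and 5 fell without it, with medians of -0.04 and -0.08. COIL, the scaffold of Cajal bodies, fell by 0.84 and 0.90, NUFIP1, an assembly factor, by 0.42 and 0.47, and NOP56, a C/D box core protein that is itself a snoRNA host, by 0.28 and 0.41. PHAX, an RNA export adaptor, stood at -0.14 (adjusted p = 0.144) after 5-FU and fell by 0.22 without it. With 5-FU before 3-MB-PP1 7 rose and 5 fell, and with 5-FU alone 4 rose and 8 fell.

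Of 15 factors of nonsense-mediated decay, 3 rose and 3 fell with 3-MB-PP1 after 5-FU, and 0 rose and 5 fell without it, with medians of -0.03 and -0.06. The counts after 5-FU were near the shares over all genes tested, 15.7% higher and 17.2% lower. SMG9, a regulator of the SMG1 kinase, fell by 0.71 and 0.34, and SMG5 by 0.21 and 0.27. UPF3B and SMG1 fell without 5-FU, by 0.33 and 0.26, and stood at -0.03 and -0.12 after it. With 5-FU 5 rose and 2 fell before 3-MB-PP1, and 5 rose and 4 fell alone. Of 11 genes that control translation of TOP RNAs, 2 rose and 3 fell with 3-MB-PP1 after 5-FU, and 2 rose and 2 fell without it. EIF4EBP2, a repressor of the cap-binding protein, rose by 0.31 and 0.32, RHEB, the activator of MTOR, rose by 0.19 and 0.19, and EIF4E, the cap-binding protein, fell by 0.24 and 0.28. MLST8, an MTOR complex subunit, fell by 0.38 and 0.29. With 5-FU 0 of the 11 rose and 6 fell before 3-MB-PP1, and 1 rose and 6 fell alone. In these 5 lists each count of 0 above was, on the main scaling, also 0 at an unadjusted p under 0.05 in edgeR. Each was also 0 by DESeq2 and limma at an adjusted p under 0.05. At an unadjusted p under 0.05, limma gave 2 factors of nonsense-mediated decay higher with 3-MB-PP1 alone. Under ERCC scaling few of all 15755 genes tested were called. With 3-MB-PP1 these were 41 higher and 12 lower after 5-FU, and 108 and 5 without it. With 5-FU they were 20 and 120 before 3-MB-PP1, and 93 and 150 alone. Of the 5 lists 0 genes were called with 3-MB-PP1 in either setting under that scaling. At an unadjusted p under 0.05, 1 other noncoding host in each setting and 4 protein-coding hosts after 5-FU lay lower. With 5-FU, 1 protein-coding host was called lower before 3-MB-PP1, 0 of the other lists were called before it and 0 of any list alone. At an unadjusted p under 0.05, that host and 1 other noncoding host lay lower before 3-MB-PP1 and 0 with 5-FU alone.

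The host genes followed each other across the 8 libraries to differing degrees. The Pearson correlation of a gene's log2 CPM with the mean of the other 9, given as a description of 8 libraries in 4 treatments, was 0.97 for GAS5, SNHG3 and SNHG15, 0.96 for SNHG12, 0.94 for SNHG1 and SNHG5, 0.90 for SNHG8, 0.89 for SNHG4 and 0.86 for SNHG7. SNHG6 stood apart at 0.33. Outside the 10, the genes most like their mean were USP12 (0.996), B4GALNT4 (0.994), POLDIP3 (0.993), POLR1C (0.993) and ARHGEF19 (0.992). As an example, ARHGEF19 averaged 20.2 ± 0.803 CPM after 5-FU then 3-MB-PP1, 45.6 ± 3.7 CPM after 5-FU then DMSO, 16.1 ± 1.03 CPM after DMSO then 3-MB-PP1 and 42.1 ± 0.926 CPM after DMSO then DMSO (SD, n = 2 each). Correlation does not measure the size of a change. USP12 averaged 70.9, 88.7, 69.3 and 85.7 CPM in the same order of groups, a smaller change than that of ARHGEF19.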

How the data were processed

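The 8 libraries of HCT-116 RNA form 4 treatments of 2. TopHat2 2.0.13 and hg19 come from the submitters' processing notes. How reads were counted, with which annotation and whether by strand, is not given in the sources used here. The deposited tables held, from the authors, a whole read count for every RefSeq transcript, not normalized, and RPKM, the count divided by transcript length and library total. A table had 41735 rows: 92 ERCC spike-ins and 41643 transcripts, of which 6260 had no symbol and 5902 of these were found by accession in RefSeq, used for names. Keeping the row of highest mean count per gene gave 23924 genes. A read in an exon of several transcripts can appear in the count of each.

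Counts were tested with edgeR 4.0.16 in R 4.3.3 (filterByExpr, TMM, quasi-likelihood F tests, two-sided, all 4 groups in 1 fit, 4 residual degrees of freedom); 15755 genes were tested, p-values were adjusted by Benjamini-Hochberg over all of them, and calls used a threshold of 0.05. Standard errors come from log2 change and F. Fold changes are relative to the other genes; CPM are TMM-scaled. The procedure was tested on simulated data. Alternatives were other size factors, ERCC scaling, DESeq2 1.42.0, limma 3.58.1 on log2(RPKM + 0.1) and log2(RPKM + 1), no filter, at least 50 counts in 2 libraries, the longest transcript, a replicate block and leaving out each library; the shortest transcript was added after seeing the data. The host genes and gene lists were chosen with earlier results of these data known. Named besides the 10 were up to 4 called genes of each list by size of change with 3-MB-PP1 alone, snoRNA rows inside a host, genes overlapping a host or starting within 2000 bases, and the 5 genes most correlated with their mean log2(CPM + 1). The extremes SNORD31 and SNORA16A and genes behind small counts were singled out after their values were seen, as were SNHG10, SNHG20, ZFAS1 and DANCR. SNHG14 and SNHG19 were not analysed here, and SNHG18 was not tested.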

Additional observations from a re-analysis of the deposited data

Results flagged for a closer look

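The log2 change of SNHG6 with 5-FU had opposite signs in the 2 settings, 0.14 (SE 0.06) before 3-MB-PP1 and -0.08 (SE 0.06) with 5-FU alone. All libraries were apart in each, though with 5-FU alone the nearest stood at 103 and 104 CPM. Under ERCC scaling both signs were reversed, to -0.10 and 0.05. Neither passed the test on its own (adjusted p = 0.0713 and 0.342, edgeR), and the difference was not tested.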

How the results depend on the processing

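Limits: 2 libraries per group, transcript rows that share exons, an unstated strand setting, and genes chosen on the same libraries. Main values are a median of 0.08 and 4 host genes called higher with 5-FU alone, 0.22 and 5 with 5-FU before 3-MB-PP1, and medians of -0.85 with 3-MB-PP1 alone and -0.71 after 5-FU.

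ERCC scaling, which moved the median of all genes by 0.13, -0.19, 0.19 and -0.12 in that order, gave medians of 0.21, -0.00, -0.64 and -0.83 and 0 host genes called higher with 5-FU in either setting. Under it 93 of all 15755 genes tested were called higher with 5-FU alone and 20 before 3-MB-PP1. The same scaling reversed SNHG4 (0.12) and SNHG6 (0.05) with 5-FU alone, SNHG6 (-0.10) and SNHG12 (-0.14) with 5-FU before 3-MB-PP1, and SNHG6 with 3-MB-PP1 alone (0.09) and after 5-FU (-0.06). The longest transcript gave a median of 0.21 with 5-FU alone, with SNHG4 at 0.30 (adjusted p = 0.0343), and the shortest, chosen after seeing the data, gave 0.01, 0.12, -0.99 and -0.87. SNHG4 with 5-FU alone was near 0 and reversed to 0.00 with other size factors and 0.02 with limma at both pseudocounts.

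Leaving out 1 library at a time, the median ran from 0.06 to 0.12 and 0.19 to 0.25 with 5-FU, and from -0.88 to -0.82 and -0.75 to -0.69 with 3-MB-PP1. The host genes called higher ran from 3 to 4 with 5-FU alone and from 3 (without 5-FU then 3-MB-PP1 replicate 1, where SNHG7 and SNHG15 were lost) to 6 (without DMSO then 3-MB-PP1 replicate 2, where SNHG6 was gained) before 3-MB-PP1; those called lower with 5-FU alone ran from 0 to 1. Reversals were SNHG4 from -0.04 to 0.03 and SNHG5 from -0.03 to 0.06 with 5-FU alone, and SNHG3 from -0.14 to 0.07 before 3-MB-PP1. DESeq2 and limma called 3 and 4 higher, without SNHG7 in either. Same-numbered libraries deviated together little (correlations -0.0582 to 0.046 over 6 pairs of groups). With 2 libraries per group this cannot show whether they were paired. With a replicate block the counts were 4 and 5 and the medians 0.08, 0.23, -0.85 and -0.71. The causes were not tested.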
